A study of Saccharomyces cerevisiae with 32 samples.

Results

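The genes described are the 9 cyclins that bind the cell cycle kinase Cdc28 of budding yeast and the gene of its inhibitor Sic1. They are the G1 cyclin genes CLN1, CLN2 and CLN3, the B-type cyclin genes CLB1 to CLB6, and SIC1. The members were taken by name, through their RNA probes and through the intergenic regions that border their 5′ ends. All 10 had an RNA probe among the 7056 of the gene array. A 5′ region could be identified for 8 of the 10 among the 7047 regions of the intergenic array, and the 5′ regions of CLB1 and CLB2 were not analysed here.

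Cyclins are the regulatory subunits of Cdc28, the kinase that drives the yeast cell cycle. Cln3 starts the cycle by releasing the transcription factors SBF and MBF from their inhibitor, and SBF and MBF then switch on CLN1, CLN2, CLB5 and CLB6. Clb5 and Clb6 start DNA replication, Clb1 to Clb4 drive mitosis, and Sic1 holds the Clb kinases inactive in G1 until it is destroyed by the SCF ubiquitin ligase. The CLB2 cluster is switched on later by Mcm1, Fkh2 and Ndd1, and SIC1 later still by Swi5.

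The study asked how the occupancy of general transcription regulators changed across the genome during heat stress. Saccharomyces cerevisiae was grown in YPD at 25 °C to an OD600 near 0.8, then held for 15 min at 37 °C by adding heated medium, or mock treated for 15 min with medium at 25 °C. Strains carrying HA-TBP, HA-TAF1, HA-Spt3, HA-Mot1 or HA-Bdf1, and a strain labelled Null, were fixed with 1% formaldehyde for 2 h at 25 °C, and each had 4 ChIP arrays with heat shocked against mock treated DNA. Another 4 arrays compared input DNA of the HA-TAF1 and HA-Spt3 strains, and 4 RNA arrays carried cDNA of the Null strain, BY4741, with heat against mock on 2 arrays and mock against mock on the other 2. TBP binds the core promoter and nucleates the polymerase machinery, and TAF1 and Spt3 belong to TFIID and SAGA, the complexes that bring TBP there. Mot1 strips TBP off DNA at the cost of ATP, and Bdf1 joins TFIID to acetylated histones.

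Every value is a log2 ratio, with the median of each array set to 0 and a fitted effect of the dye channel taken off. The ratio is heat shocked over mock treated cells, except on the input arrays and the 2 mock against mock RNA arrays. A value of 0 thus means the change of the median probe or region. On the mock against mock arrays, called mock arrays below, both channels held mock treated cells. Their values are not a level under mock treatment. Nor are they an independent spread around 0, since the RNA channel effect was fitted on heat and mock arrays together. With it taken off, the mean of the mock values is set by the gap between the heat arrays. For CLN2 the mock arrays moved from 0.26 and 0.27 to 0.37 and 0.38. Comparisons of single heat and mock values below are thus descriptions and not tests. The fitted RNA change was the mean of the 2 heat arrays, from which the mock arrays were not subtracted. The direction of the deposited ratios is a likely one and not a stated one, and under the opposite reading all signs of the RNA values, or of the ChIP values, turn round. For ChIP it was also assumed that the deposited values had not already been turned to 1 condition over the other. Over the regions tested, arrays of opposite channel order within a group correlated after turning at -0.26 to -0.01 for TAF1, -0.21 to -0.03 for Spt3, -0.41 to -0.14 for Null and -0.45 to -0.30 for the input arrays. Over all regions with values, the untested ones included, the TAF1 pairs were lower, at -0.46 to -0.19. Pairs over the regions tested lay on both sides of 0 for Bdf1, between -0.15 and 0.14, for Mot1, between -0.03 and 0.38, and for TBP, between -0.02 and 0.29. Over all regions with values the Bdf1 pairs were all below 0, at -0.36 to -0.01. The Mot1 pairs then ran from -0.12 to 0.195 and the TBP pairs from -0.16 to 0.13. With the channel effect, fitted on the same arrays, taken off, pairs over the regions tested correlated above 0 for all 5 factors. They were at 0.12 to 0.34 for TAF1 and 0.19 to 0.33 for TBP. They then ran from -0.05 to 0.12 for Null and stayed below 0 for the input arrays, at -0.39 to -0.17. Taken as already turned, no member region was called for any group, and over all regions 0.892% were called for TAF1 and 0.0469% for TBP. A gene or region was called where limma's moderated test gave a Benjamini-Hochberg adjusted p under 0.05 over all probes or regions. The labels do not say which arrays came from separate cultures, so the p-values measure the spread between arrays. The arrays held 6644 to 6953 values each. The widest spreads over regions were those of Bdf1 array D, with an SD of 1.21, and Null array A, with 1.14, against 0.41 to 0.93 on the other ChIP arrays.

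Heat shock lowered the RNA of 3 of the 10 genes, CLN2, CLB2 and CLB5, and raised none past the test. The G1 cyclins gave 1 of these falls among 3 genes and the B-type cyclins 2 among 6. Over all 6683 probes tested 39.3% were called, with 19.4% of all probes higher and 19.9% lower, so 3 calls of 10 is close to the background. The median of the 10 members was -0.32, against 0.01 over all probes. Their changes lay inside the bulk of the response, since 5.73% of all probes were lower than CLB5, the lowest member, and 20.6% were higher than SIC1, the highest. The labels name no synchronisation, so fewer cells in the phase that expresses a cyclin and less RNA per cell cannot be told apart.

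Among the G1 cyclins CLN2 fell. CLN2, an activator of the step from G1 to S phase, was at -0.67 and -1.41 on heat arrays A and B and at 0.37 and 0.38 on mock arrays A and B. Both heat arrays were below both mock arrays, and heat array B was the lower of the pair. Before the channel effect was taken off, the heat arrays were at -0.56 and -1.52 and the mock arrays at 0.26 and 0.27. The fitted change was -1.04 ± 0.24 (SE, adjusted p = 0.00967), a 2.05-fold fall. Without heat array B the change was -0.29 and no longer called (adjusted p = 0.423).

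CLN1, the close relative of CLN2, was at -0.54 and -0.37 on the heat arrays and at 0.13 and -0.30 on the mock arrays. Its heat values were the lower ones, but the gap between heat array B and mock array B was small. The change of -0.46 ± 0.18 was not called (adjusted p = 0.0733, 95% interval -0.87 to -0.05). CLN3, the upstream cyclin, was at 0.08 and 0.44 on the heat arrays and at -0.13 and -0.22 on the mock arrays. Its change of 0.26 ± 0.18 was not called either (adjusted p = 0.291, 95% interval -0.15 to 0.67), and the interval leaves no room for a fall of the size fitted for CLN2.

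Among the S-phase cyclins CLB5 had the largest fall of the 10 genes. It was at -1.09 and -2.04 on heat arrays A and B and at 0.51 and 0.45 on the mock arrays. The groups did not overlap, and again heat array B was the lower. With the channel effect left in, the heat arrays were at -0.84 and -2.29 and the mock arrays at 0.26 and 0.20. The change was -1.57 ± 0.28 (adjusted p = 0.0027), a 2.96-fold fall. Without heat array B it was -0.61 and not called (adjusted p = 0.146). CLB6, the other S-phase cyclin, was at -0.48 and -0.25 on the heat arrays and at 0.22 and -0.45 on the mock arrays. Heat and mock values overlapped, and its change of -0.37 ± 0.20 was not called (adjusted p = 0.188).

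Among the mitotic cyclins CLB2 fell, and with the smallest error of the members called. CLB2, the main mitotic cyclin, was at -1.11 on both heat arrays and at 0.01 and 0.00 on the mock arrays. The closeness of the heat arrays came with the fitted channel effect taken off. Before that they were at -1.34 and -0.88, and the mock arrays at 0.25 and 0.23. The change was -1.11 ± 0.16 (adjusted p = 0.000679), a 2.16-fold fall. CLB2 kept its call whichever of the 4 arrays was left out, with values of -1.12 to -1.10.

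CLB1, the paralog of CLB2, was at -0.41 and -0.15 on the heat arrays and at 0.09 and -0.35 on the mock arrays. The values overlapped, and the change of -0.28 ± 0.19 was not called (adjusted p = 0.268). CLB3 and CLB4, the cyclins of early mitosis, stood at -0.02 ± 0.19 (95% interval -0.45 to 0.41) and 0.13 ± 0.16 (-0.23 to 0.50). Both intervals exclude the fall fitted for CLB2.

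SIC1, the inhibitor, had the highest value of the 10 genes. It was at 0.40 and 0.59 on heat arrays A and B and at 0.13 and -0.32 on the mock arrays. Both heat arrays lay above both mock arrays, but the change of 0.50 ± 0.18 was not called (adjusted p = 0.0575, 95% interval 0.09 to 0.91). With the channel effect left in, the heat arrays were at 0.49 and 0.51 and the mock arrays at 0.04 and -0.40.

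**Figure D1:**
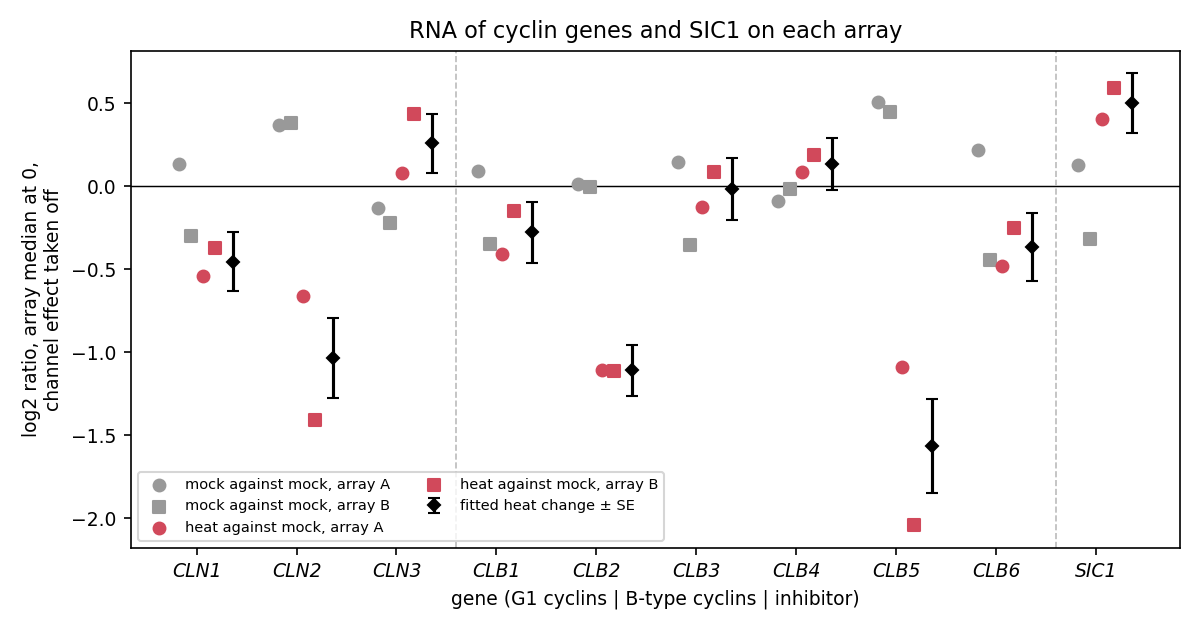
RNA of the 10 genes on each of the 4 RNA arrays, as the log2 ratio with the array median at 0 and the channel effect taken off. Grey points are mock against mock, red points heat against mock, and black diamonds the fitted heat change with its standard error; CLB5, CLB2 and CLN2 stand lowest at -1.57, -1.11 and -1.04, and SIC1 highest at 0.50.

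With all RNA arrays scaled to equal spread 11.7% of all probes were called, and none of the 3 falls was (adjusted p = 0.0693 for CLB5, 0.0741 for CLB2 and 0.19 for CLN2), a scaling under which the fitted values shrank to -0.99, -0.70 and -0.66.

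The regions bordering the 5′ ends differ in what else they carry. Those of CLN1, CLN3 and CLB3 border the promoter of the cyclin gene alone. The CLN2 region is shared with BBP1, the CLB4 region with PNP1 and the SIC1 region with BOS1, genes read in the opposite direction. The CLB5 and CLB6 regions end at a tRNA gene on their other side, and tRNA genes are also bound by TBP as part of another polymerase's machinery. In a shared region the signals of both sides cannot be told apart. The RNA of BBP1, a gene of the spindle pole body, fell too, by 0.82 on the log2 scale (SE 0.20, adjusted p = 0.0125), whereas PNP1, a purine nucleoside phosphorylase gene, at -0.02 ± 0.20 and BOS1, a SNARE gene, at -0.02 ± 0.18 were not called.

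Occupancy at these 8 regions was called in a single case, that of TAF1 at CLB6. TBP was called at 0 of the 8 regions against a background of 12.4% of the 6392 regions tested, and 1 of the 8, SIC1, had an unadjusted limma p under 0.05. TAF1 was called at 1 against 20.9%, Spt3 at 0 against 5.65% and Mot1 at 0 against 12.8%. Bdf1 was called at 0 against 16.2%, and the Null strain at 0 against 0.0313%. At an unadjusted p under 0.05 TAF1 had 2 regions, Spt3 and Null 3 each, Mot1 1 and Bdf1 0. With so few regions these counts do not set the cyclins apart from the rest of the genome.

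At CLB6 the TAF1 signal fell. The TAF1 arrays A to D were at -0.34, -0.47, -0.47 and -0.49. All 4 were below 0 and close to each other. The change was -0.44 ± 0.14 (adjusted p = 0.0263), and 8.67% of all regions were called lower for TAF1. Without any single TAF1 array the value stayed between -0.48 and -0.43 but was not called (adjusted p = 0.0668 to 0.0854). Of all regions 9.75% to 18.1% were then called for TAF1. Taken as already turned, the deposited values gave 0.14 (adjusted p = 0.894). Without centring of the arrays TAF1 was called at 0 of all regions, and its value at CLB6 was -0.58.

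The Null strain went the other way at CLB6. Its arrays A to D were at 1.11, 0.44, 0.11 and 0.14, all above 0, with array A far above the others. The Null change of 0.45 ± 0.14 was not called (adjusted p = 0.0974). TAF1 minus Null was therefore larger than TAF1 itself, -0.89 ± 0.20 (adjusted p = 0.00542). It was -0.66 without Null array A (adjusted p = 0.0189), and -0.57 and not called without the Null arrays A and B (adjusted p = 0.105).

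The other factors at CLB6 did not pass the test. TBP was at -0.07 ± 0.14, Spt3 at -0.01 ± 0.14, Mot1 at -0.06 ± 0.14 and Bdf1 at -0.13 ± 0.14. The TBP interval ran from -0.36 to 0.22, and TAF1 differed from none of the other 4 factors past the test. The RNA of CLB6, at -0.37, was not called.

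At CLB5, whose RNA had the largest fall, no factor was called. TAF1 was nearest, with arrays A to D at -0.30, -0.42, -0.27 and -0.14. All 4 were below 0, as at CLB6. The TAF1 change was -0.28 ± 0.12 (adjusted p = 0.0884). The Null arrays at CLB5 were at -0.06, -0.93, -0.15 and 0.23, with a fitted change of -0.23 ± 0.12, so TAF1 minus Null came to -0.06 ± 0.17. The TBP arrays were at 0.21, 0.03, 0.11 and 0.01, and the TBP change of 0.09 ± 0.12 had a 95% interval of -0.15 to 0.34. The RNA fall of CLB5 was not called without heat array B. This region also ends at a tRNA gene, and the scales of the RNA and ChIP arrays need not match. A link between the RNA and TBP changes was not tested.

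At CLN2, whose RNA also fell, the TBP arrays A to D were at -0.06, -0.23, -0.04 and -0.13. All 4 were slightly below 0. The TBP change was -0.12 ± 0.08 (adjusted p = 0.409, 95% interval -0.28 to 0.05). TAF1 was at -0.07 ± 0.08 (interval -0.23 to 0.10) and Bdf1 at -0.12 ± 0.08 (interval -0.29 to 0.05). The RNA fall beside them, 1.04, rests on heat array B, and the scales of the 2 kinds of array need not match.

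Spt3 at CLN2 had the opposite sign. Its arrays B to E were at 0.62, 0.14, -0.01 and 0.23. Of these 4, 3 were above 0 and array B was the highest. The change of 0.25 ± 0.08 was not called (adjusted p = 0.0716), and the Null strain stood at 0.17 ± 0.08 in this region. Spt3 at CLN2 was called at 0.34 without its array D (adjusted p = 0.0312), at 0.21 with arrays scaled to equal spread (0.0483) and at 0.20 with arrays weighted by quality (0.0192).

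At CLN1 the Spt3 arrays B to E were at -0.06, 0.57, 0.46 and 0.58. Array B, the one highest at CLN2, was the lowest here. The change of 0.39 ± 0.16 was not called (adjusted p = 0.157), but was with scaled arrays (0.50, adjusted p = 0.016) and with weighted arrays, at 0.57, settings in which 9.57% and 15.7% of all regions were called for Spt3. Mot1 at CLN1 was at 0.86, 0.16, 0.14 and 0.40 on arrays A to D, all above 0, with a change of 0.39 ± 0.16 (adjusted p = 0.122). The Null strain had 1.22 on array A and -0.05, -0.17 and 0.13 on the others, and a fitted value of 0.28 ± 0.16. TBP at CLN1 was at 0.07 ± 0.16 and TAF1 at 0.13 ± 0.16.

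At CLN3 the arrays disagreed most. The Null arrays A to D were at -2.11, 0.38, -0.82 and -0.44, and the Bdf1 arrays at -0.56, -0.12, -0.94 and 1.55. TBP array A and TAF1 array D had no value, and the fit used the other 3 of each. The standard errors of 0.36 to 0.41 were about 3 times the median over all regions of 0.12. The fitted Null change was -0.75 ± 0.36 (unadjusted p = 0.0482, adjusted p = 0.248), so the factors minus Null ran from 0.73 for Bdf1 to 1.40 for Spt3 there, none called. The highest factor value was that of Spt3, 0.65 ± 0.36 (adjusted p = 0.311), with arrays at 0.78, 0.96, -0.14 and 1.01. The TBP arrays B to D were at 0.67, 0.43 and 0.43. The channel effect taken off at CLN3 was -0.59, larger in size than the TBP value of array C, so the shared sign of these arrays depends on it. No change at CLN3 was called, and its intervals, such as -0.35 to 1.37 for TBP, leave room for a 2-fold change.

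SIC1 had the highest TBP value after CLN3. The TBP arrays A to D were at 0.55, 0.20, 0.59 and 0.34, all above 0. The TBP change was 0.42 ± 0.19 (unadjusted p = 0.0382, adjusted p = 0.168), and was called with weighted arrays, as were 41.2% of all regions for TBP. TAF1 was above 0 on all 4 arrays too, at 0.07, 0.36, 0.32 and 0.15, with a change of 0.22 ± 0.19 (adjusted p = 0.457). The channel effect taken off in this region was -0.20, larger in size than the TAF1 value of array A. The shared sign of the TAF1 arrays thus depends on taking it off. Spt3 at SIC1 was at 1.23, 0.20, -0.13 and 0.48 and Mot1 at -0.32, 0.96, 0.17 and 0.67, and each had arrays on both sides of 0. The Null strain was at -0.04 ± 0.19. The SIC1 region thus had TBP, TAF1, Spt3, Mot1 and Bdf1 estimates of 0.22 to 0.44, none called.

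CLB3 and CLB4 stayed close to 0. At CLB3 the 24 arrays of the factors and Null ran from -0.22 to 0.14, and the fitted changes lay between -0.08 and -0.01 with standard errors of about 0.06. The TBP interval at CLB3 was -0.20 to 0.05. At CLB4 the arrays spread more, from -0.50 to 0.55, and the highest change was that of TBP, 0.21 ± 0.12 (adjusted p = 0.289).

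**Figure D2:**
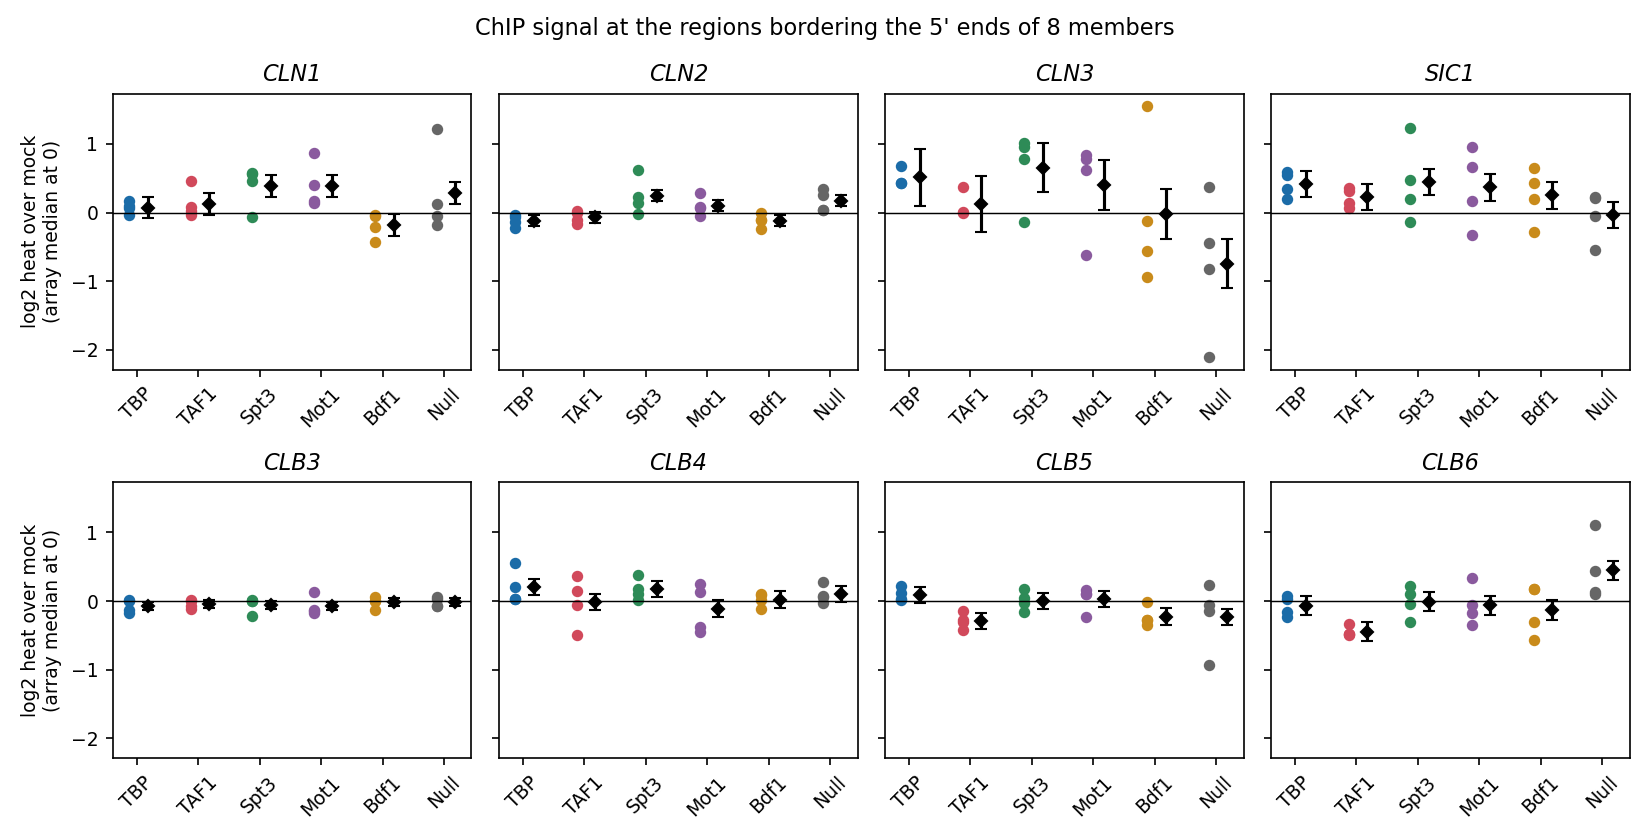
ChIP signal at the 5′ regions of 8 members, with 1 panel per gene. Coloured points are single arrays of the 5 factors and the Null strain in log2 heat over mock with the array median at 0, and black diamonds are the fitted changes with their standard errors. At CLB6 the 4 TAF1 arrays lie between -0.49 and -0.34 and the 4 Null arrays above 0, while CLN3 has the widest spread.

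Against the Null strain, 1 of the 40 differences at member regions was called, TAF1 at CLB6, and 11 of the 40 had an unadjusted limma p under 0.05. The background of called regions was 6.96% for TBP minus Null, 11.5% for TAF1 minus Null, 0.954% for Spt3 minus Null, 6.96% for Mot1 minus Null and 8.71% for Bdf1 minus Null. Over the 10 pairs of factors 0 of 80 differences were called, against 3.11% over all regions, with 7 of the 80 at an unadjusted limma p under 0.05. The nearest was Spt3 minus Bdf1 at CLN2, 0.37 (adjusted p = 0.0544). The input arrays, TAF1 strain over Spt3 strain, were at -0.07 to 0.08 in the 8 regions and none was called.

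G1 and B-type cyclins were compared by their mean on each array, as a description over 3 and 4 regions. The Spt3 mean was 0.43 for the G1 cyclins and 0.03 for the B-type cyclins. On Spt3 arrays B to E the G1 mean exceeded the B-type mean by 0.39, 0.53, 0.01 and 0.67. For TAF1 the class means were 0.06 and -0.20, with the G1 cyclins higher on all 4 arrays, by 0.14, 0.56, 0.21 and 0.08. For Mot1 they were 0.30 and -0.05, with the G1 cyclins higher on 3 of 4 arrays. TBP had 0.16 and 0.04, Bdf1 -0.11 and -0.09, and Null -0.10 and 0.08. The noisy CLN3 region enters each G1 mean, except on TBP array A and TAF1 array D where it has no value. Differences between G1 and B-type means on the Null arrays ran from -0.53 to 0.34 and on the input arrays from -0.15 to 0.23. In RNA the G1 mean exceeded the B-type mean by 0.15 and 0.10 on heat arrays A and B, against -0.02 and 0.07 on the mock arrays.

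**Figure D3:**
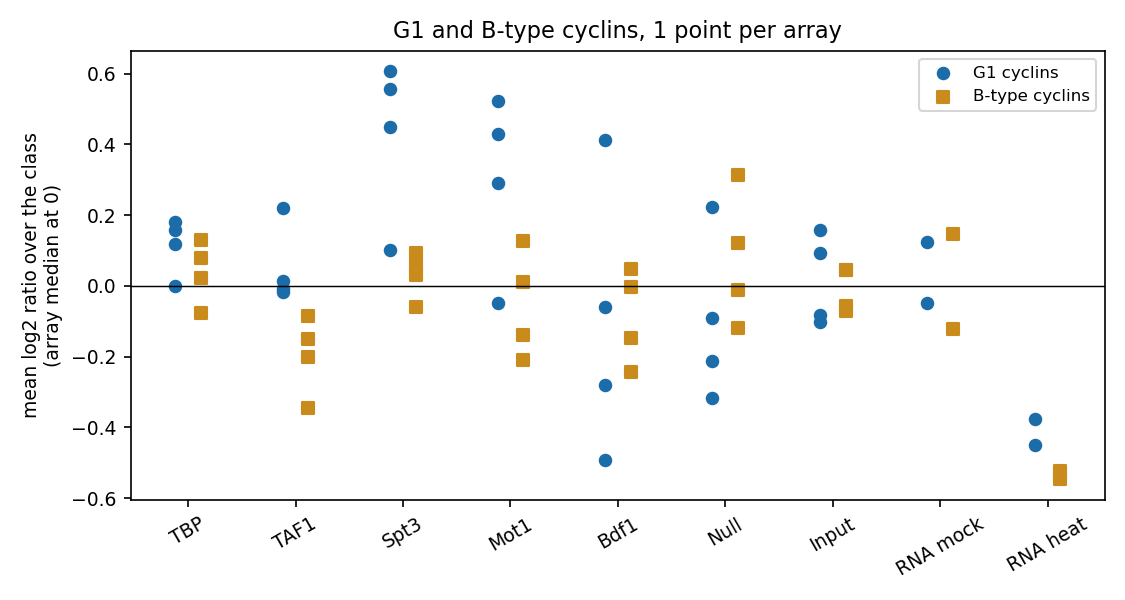
Mean log2 ratio of the G1 cyclins (circles) and the B-type cyclins (squares) on each array, by group, with the array median at 0. ChIP means are over 3 and 4 regions and RNA means over 3 and 6 genes. The G1 cyclins lie above the B-type cyclins on all 4 Spt3 and all 4 TAF1 arrays, and both classes lie below 0 on the RNA heat arrays, at -0.45 to -0.38 and -0.55 to -0.52.

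The regions at the 3′ ends of the members served as a comparison. Of them 5 lie between convergent genes and border no promoter, those next to CLN2, CLN3, CLB4, CLB5 and CLB6 (the last pair also bordering the 3′ ends of CLB2 and CLB1). TBP was below 0 in all 5, with a median of -0.30, against -0.12 over all 1390 convergent regions, whereas the median of the 8 regions at 5′ ends was 0.08. The median of the 5 was -0.40 for both Spt3 and Bdf1, -0.10 for Mot1, -0.08 for TAF1 and -0.05 for Null. Over all convergent regions the medians were -0.09 for Spt3, -0.10 for Bdf1, -0.04 for Mot1, -0.11 for TAF1 and -0.02 for Null. The Spt3 fall between CLB2 and CLB5, -0.52, was called (adjusted p = 0.0337), with arrays B to E at -1.19, -0.25, -0.35 and -0.28. Array B was far below the other 3. Of all regions 1.77% were called lower for Spt3. Spt3 minus Null was at -0.48 there and not called (adjusted p = 0.194). Single arrays stood out in this set, TBP array C at -2.81 downstream of CLB4 and Null array D at 3.85 between CLB1 and CLB6. Since heat over mock is relative to the array median, a value below 0 in these regions is a lower change than that of the median region.

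At the 3′ ends of CLN1, CLB3 and SIC1 lies the promoter of the next gene. TAF1 rose next to CLN1, at the promoter of ROT1, by 0.34 (adjusted p = 0.013), with arrays A to D at 0.35, 0.33, 0.51 and 0.15. No other factor was called there, and 12.2% of all regions were called higher for TAF1. The RNA of ROT1, which acts in protein folding in the endoplasmic reticulum, rose by 0.72 ± 0.17 (adjusted p = 0.0119). Bdf1 rose next to SIC1, at the promoter of EMP46, by 0.54 (adjusted p = 0.00149), with arrays at 0.41, 0.34, 0.94 and 0.45. Of all regions 8.42% were called higher for Bdf1. The RNA of EMP46, a component of secretory vesicles, rose by 1.06 ± 0.19 (adjusted p = 0.00232). The other factors at EMP46 were not called, with Spt3 at -0.26, Mot1 at -0.25, TBP at -0.17 and TAF1 at -0.03. Next to CLB3, at the promoter of MSH5, no factor was called, with values of -0.39 for Bdf1 to -0.09 for Mot1, and the MSH5 RNA was at -0.29 ± 0.16 and not called. CYC3, the cytochrome c heme lyase gene, lies on the other side of CLN3, with its own 3′ end facing the CLN3 promoter. Its RNA rose by 0.81 ± 0.20 (adjusted p = 0.012).

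The region with the profile most like each member over the 24 factor and Null arrays was looked up by Pearson's r, as a description. The arrays are shared by all regions, and the highest of 5976 values of r is high by selection. CLN2 had the closest match, the region between SHB17 and UIP5 (r = 0.877), where the top 1 percent of regions began at 0.674. For SIC1 it was the region between MAP1 and CDD1 (0.775), for CLN1 that between ESBP6 and NAF1 (0.779), and for CLB6 the convergent region of SHS1 and WHI4 (0.808). CLB4 matched the region between TPN1 and YGL185C (0.73), CLB3 that of SOL2 and ERS1 (0.719), and CLN3, over 22 arrays, that of MUP3 and VMR1 (0.788). The match of CLB5 (0.759) had no gene name. No member was the closest match of another member.

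Other genes of the same pathways were taken from lists of known roles. Over all probes 19.9% were called lower and 19.4% higher. The lists were not counted again with the RNA arrays scaled to equal spread. The G1/S cluster, targets of SBF and MBF that act in DNA replication and budding, had 12 falls and 0 rises among its 19 genes. Its median was -0.61, against 0.01 over all probes. HO, the mating type endonuclease gene, was at -3.46 and -3.62 on the heat arrays and had a change of -3.54 ± 0.20. RNR1, the large subunit of ribonucleotide reductase, was at -3.09 on both heat arrays (-3.09 ± 0.17), and TOS4, a forkhead-domain protein, at -2.12 and -2.10 (-2.11 ± 0.18). All 3 fitted values were below those of the cyclins. The DNA polymerase gene POL1 fell to -1.66 ± 0.18 and POL30, the sliding clamp, to -1.34 ± 0.19. Among genes not called, RFA1, a subunit of the single-strand binding protein RPA, was at 0.14 ± 0.16 and YOX1, a homeodomain repressor, at -0.01 ± 0.16.

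Occupancy at the G1/S cluster was called at few regions. Of its 18 regions TAF1 was higher at 1, against 12.2% of all regions, and lower at 2, against 8.67%. The 2 lower ones were the promoters of HO (-0.46 ± 0.10) and MNN1 (-0.41 ± 0.14), a mannosyltransferase gene. Bdf1 was lower at 2, against 7.81% of all regions, HO (-0.59 ± 0.16) and POL1 (-0.60 ± 0.18). TBP was higher at 1 against 8.35%, Spt3 at 1 against 3.88% and Mot1 at 2 against 8.57%, and the median TBP change was -0.04. CDC6, a replication licensing gene, was the region higher for TBP, TAF1 and Spt3, and 1 of the 2 higher for Mot1, at 0.64 ± 0.10. The RNA of CDC6 was at -0.52 ± 0.21 and not called.

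The CLB2 cluster, expressed in mitosis, had 7 falls and 0 rises among 12 genes tested, against 19.9% and 19.4% of all probes. Its median was -0.53. CDC5, the polo kinase gene, fell to -0.87 ± 0.16, HOF1, a cytokinesis gene, to -0.82 ± 0.19, and SWI5, the activator of SIC1, to -0.66 ± 0.18. Of its 11 regions TAF1 was higher at HST3 (0.60 ± 0.13), Mot1 at CHS2 (0.54 ± 0.13), and TBP at none. The shares of all regions that were higher were 12.2% for TAF1, 8.57% for Mot1 and 8.35% for TBP.

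**Figure D4:**
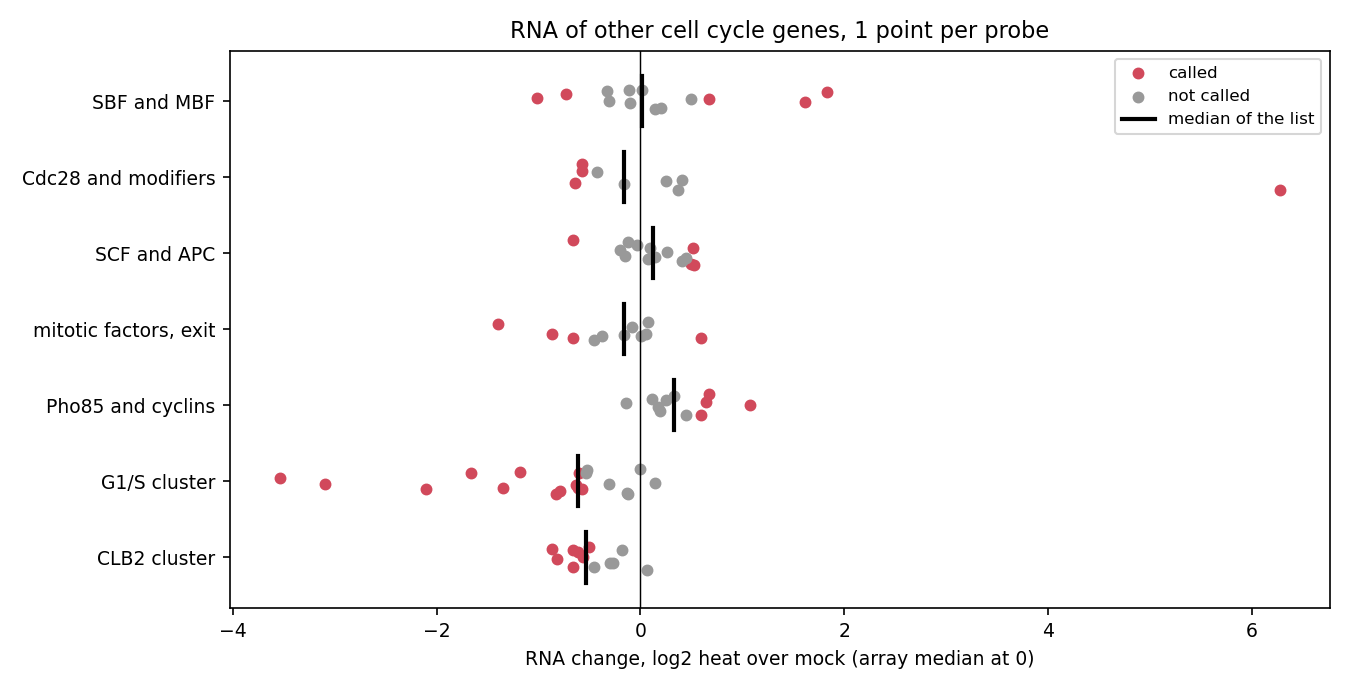
RNA change of the genes in 7 lists of cell cycle genes, in log2 heat over mock with the array median at 0, with 1 point per probe. Red points were called, grey points were not, and black bars are list medians. The G1/S cluster reaches down to HO at -3.54 and the CLB2 cluster has no called rise, while the single point at 6.27 is CAK1.

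Among SBF, MBF and their regulators 3 of 13 genes rose and 2 fell, against 19.4% and 19.9% of all probes. The list median was 0.01. XBP1, a stress-induced repressor of cyclin genes, was at 1.76 and 1.89 under heat and rose by 1.83 ± 0.16. RME1, a zinc finger protein that activates CLN2 in mitotic cells, was at 1.67 and 1.57 and rose by 1.62 ± 0.17, and AZF1, an activator of CLN3, rose by 0.67 ± 0.17. NRM1, the co-repressor of MBF, fell to -1.01 ± 0.17, and SWI6, the subunit shared by SBF and MBF, to -0.73 ± 0.16. Of their 11 regions TBP was higher at SWI4 (0.38 ± 0.09) and MBP1 (0.39 ± 0.09), the DNA-binding subunits, against 8.35% of all regions. TAF1 was higher at 4, against 12.2% of all regions, and lower at 0, against 8.67%.

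Of the 9 genes of Cdc28, its subunit and its direct modifiers 3 fell and 1 rose, against 19.9% and 19.4% of all probes. FAR1, a Cdc28 inhibitor of the mating response, fell to -0.65 ± 0.18, HSL7 to -0.58 ± 0.16 and SWE1, a kinase that inhibits Clb-bound Cdc28, to -0.57 ± 0.16. The riser was CAK1, the kinase that activates Cdc28, whose name rests on a single probe and an old platform annotation that was not checked here. That probe was at 6.45 and 6.10 on the heat arrays and at -0.08 and 0.42 on the mock arrays. That change of 6.27 ± 0.20 was far outside those of the other 8 genes. None of the 6 regions tested for this list was called for any factor, against 5.65% of all regions for Spt3 to 20.9% for TAF1.

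Of 14 genes of the SCF and APC ubiquitin ligases 3 rose and 1 fell, against 19.4% and 19.9% of all probes. The list median was 0.12. CDC4, the SCF subunit that recognises Sic1, rose by 0.52 ± 0.17, the cullin gene CDC53 by 0.49 ± 0.17 and APC1 by 0.53 ± 0.18, and CDC20, an APC activator, fell to -0.66 ± 0.17. At their 13 regions TBP, TAF1 and Bdf1 were each higher at 4, the promoters of CDC53, SKP1, CDH1 and CDC27 for all 3 factors. Of all regions 8.35% were higher for TBP, 12.2% for TAF1 and 8.42% for Bdf1. The CDC53 region had 0.56 ± 0.13 for TBP, 0.93 ± 0.13 for TAF1 and 0.72 ± 0.13 for Bdf1. Spt3 was lower at GRR1, the SCF subunit that recognises Cln proteins, by 0.26 (adjusted p = 0.0161), against 1.77% of all regions.

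Of 11 genes of mitotic transcription factors and mitotic exit 1 rose and 3 fell, against 19.4% and 19.9% of all probes. FKH1, a forkhead factor, fell to -1.40 ± 0.17, and CDC5 and SWI5 are counted here again, while CDC15, a mitotic exit kinase, rose by 0.60 ± 0.20. Of their 10 regions Mot1 was higher at 2, against 8.57% of all regions, Spt3 at 1, against 3.88%, and Bdf1 lower at 1, against 7.81%. TBP and TAF1 were called at none, against 12.4% and 20.9%. MCM1, the partner of Fkh2 at CLB2 cluster promoters, was at 1.07 ± 0.15 for Mot1 (adjusted p = 5.18e-05) and 0.51 ± 0.15 for Spt3. Mot1 was at 0.34 ± 0.10 at DBF2, a mitotic exit kinase gene, and Bdf1 at -0.44 ± 0.12 at CDC15. Of the 11 genes of Pho85, a second cyclin-dependent kinase, and its cyclins 4 rose and 0 fell, against 19.4% and 19.9% of all probes. The list median was 0.33. The largest rise was that of PCL5, at 1.00 and 1.16 on the heat arrays and a change of 1.08 ± 0.18. PHO85 itself rose by 0.68 ± 0.23 and PCL2, a cyclin of G1, by 0.64 ± 0.17. At their 11 regions Bdf1 was higher at 5, TAF1 at 4, Spt3 at 3, and TBP and Mot1 at 2 each. Of all regions 8.42% were higher for Bdf1, 12.2% for TAF1, 3.88% for Spt3, 8.35% for TBP and 8.57% for Mot1.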

How the data were processed

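Scanner and software were GenePix 4000A and GenePix Pro 4.0, per the labels. The authors deposited log2 ratios of both channels, not centred, with background correction, normalization and numerator not given in the sources used here. Ratios of RNA were taken as channel 2 over channel 1, since chaperone RNA then rises, and the ChIP ratio as channel 1 over channel 2, since TBP at promoters then runs with RNA. Each array was turned to heat over mock, and its median was set to 0.

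In limma 3.58.1 (R 4.3.3) the 28 ChIP arrays were fitted together, with a coefficient for each group and a dye channel effect for each region (regions with values on at least 3 arrays of each group, 6392 of 7047). The 4 RNA arrays had a heat and a channel coefficient (probes with values on all 4, 6683 of 7056). Two-sided moderated tests were adjusted by Benjamini-Hochberg over the whole table. The number of arrays limits the precision, with a median SE of 0.12 for ChIP and 0.17 for RNA.

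Probes were named by the platform annotation and a RefSeq table (assembly R64), used for names and neighbours only. Regions were placed to the right of the gene that names them, a choice made after values were seen: over 1113 tandem Watson-strand regions the TBP change ran with the RNA change of the right-hand gene (Spearman's rho 0.487) and not of the naming gene (-0.01). Members and lists were chosen with earlier results of these data known, and 1 list is not reported here. The text names the members, genes sharing or following their regions, the 3 highest and 3 lowest called RNA changes of each list with some of their called regions, and the closest profile; further list genes (POL1, POL30, RFA1, YOX1 and CDC6 in RNA) were chosen after their values were seen. The model was tested on simulated data.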

Additional observations from a re-analysis of the deposited data

Results flagged for a closer look

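At CLB6 the TAF1 and Null changes differed, by -0.89 (TAF1 minus Null, adjusted p = 0.00542), with every TAF1 array below 0 and every Null array above 0. Of the 46 sets of 4 arrays examined at the 8 regions, 4 had an array far from the other 3 by Dixon's criterion, which chance gives in about 1 in 20 sets. These were Mot1 array A at CLB3, the highest at 0.14, Spt3 array B at CLB3, the lowest at -0.22, TAF1 array A at CLB6, the highest at -0.34, and Mot1 array D at CLN3, the lowest at -0.62. At CLB3 and CLB6 the whole range of the 4 arrays was small. The 2 sets with a missing value at CLN3 were not examined.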

How the results depend on the processing

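The choice with most effect was centring. Without it TAF1 had 0 member regions called, against 0% of all regions, Mot1 6 against 89.4%, Null 6 against 87.1%, TBP minus Null 5 against 57.2%, TAF1 minus Null 0 against 0.329% and the factor pairs 8 against 8.57%. Values that turned were those of Mot1 at CLN1 (-0.77), CLN2 (-1.06) and CLB5 (-1.13), of Null at CLN2 (-0.74) and CLB4 (-0.81), of TBP minus Null at CLB3 (1.04), and of TBP minus Mot1 at CLN1 (1.04), CLN2 (1.14) and CLB6 (1.35). These values carry the array medians.

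With arrays scaled to equal spread Spt3 had 2 regions called against 9.57% of all, the pairs 1 against 2.3% and RNA 0 genes against 11.7%. With array weights TBP had 3 (CLN2, CLN3 and SIC1) against 41.2% of all regions, Spt3 2 against 15.7%, Mot1 1 against 14.5%, TBP minus Null 1 against 18%, Spt3 minus Null 1 against 3.61% and the pairs 6 against 6.73%. Without the Null arrays A and B, a choice made after seeing the data, TAF1 minus Null had 0. With the ChIP values taken as already turned, also chosen after seeing the data, TAF1 had 0 regions and TAF1 minus Null 0, with TAF1 at CLB6 turned to 0.14. Leaving out single arrays gave 0 to 0 for TAF1 over its own arrays, 0 to 1 for Null, Bdf1 minus Null, Spt3 and the pairs, and 1 to 3 genes for RNA; the calls gained were Null and Bdf1 minus Null at CLB6, without Null array C or D, Spt3 at CLN2 and Spt3 minus Bdf1 at CLN2, without Spt3 array D, and Spt3 minus Bdf1 at CLN2 without Mot1 array B (0.37, adjusted p = 0.0474). Without single TAF1 arrays 9.75% to 18.1% of all regions were called for TAF1, against 20.9% with all arrays. Without Null array C or D 10.5% or 5.51% were called for Null, against 0.0313%, and 10.9% or 9.39% for Bdf1 minus Null. Without Spt3 array D 5.11% were called for Spt3 and 2.6% over the pairs. Without Mot1 array B 2.36% were called over the pairs. No share over all probes is given for the RNA counts. The cause of these changes was not tested.

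The replicate letters were not used to pair the arrays in the main fit. Over 55 pairs of same-lettered arrays the correlation of deviations was -0.30 to 0.27 (median -0.03), with 6 above 0.1. No values for differently lettered pairs are given beside these, so whether the letters pair the arrays is not settled. With the letter as a replicate block TAF1 had 1 region called, TAF1 minus Null 1, Mot1 minus Null 1 (CLB6, -0.67) and RNA 2 genes. Some regions could not be fitted with the block, and no share over all regions or probes is given for these counts. Letter E stood on 1 Spt3 array alone, so that array added nothing to the Spt3 estimate in this setting. The RNA of CLN2 was then at an adjusted p of 0.0522. With the heat RNA arrays alone, and no channel effect, it was 0.0542. The channel effect left out, and stricter or looser limits on missing values, changed no member count by over 1.5 times.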
